A study of Mus musculus with 4 samples.

Results

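The genes described here are 36 collagens and matrix proteins typical of fibroblasts, listed by symbol and read on Affymetrix arrays from cultures of mouse embryonic stem (ES) cells grown with and without fibroblast feeder cells. Members were the probe sets annotated to 1 of these symbols alone, and for each gene the probe set with the highest mean signal over the 4 arrays was used. In all, 33 of the 36 genes had such a probe set, out of 18193 genes named on the array. Fbn1, Spp1 and Loxl2 had none and were not analysed here. The ES cells were of the E14.1 strain and carried 1 of these Sall4 genotypes: heterozygous (flox/-, line HET18) or labelled null (delta/-, line KO1). Each line was grown on gelatin without feeders or on blasticidin-resistant fibroblasts, with 1 array for each of the 4 combinations. Both lines carried a blasticidin-resistance gene targeted to Oct3/4, and every culture received serum, LIF and blasticidin. Each genotype was 1 line, so a difference between lines and a difference between genotypes cannot be told apart, and no group had a replicate array.

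The extracellular matrix of connective tissue is built by fibroblasts. Fibrillar collagens are secreted as procollagens that fold with the help of a dedicated chaperone, are trimmed by proteases outside the cell, and are then joined by lysyl oxidases. Elastic fibres, fibronectin, proteoglycans and matricellular proteins complete the network. ES cells on feeders grow on a layer of such cells, and RNA extracted from the whole culture holds RNA of both cell types. In such bulk samples, fewer cells of a type and less RNA per cell cannot be told apart.

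The median signal of all probe sets was 16.1 to 18 on the 4 arrays. Without feeders Sall4 itself read 1126.5 in the heterozygous line and 1670.5 in the line labelled null, and with them it read 780.8 and 1452.4. These signals are higher on the arrays labelled null, so the genotype of that line rests on its label. Where this probe set lies relative to the deleted part is not given in the sources used here. All 5 defining ES cell markers (Pou5f1, Nanog, Sox2, Zfp42 and Esrrb) lay above the all-signal median of 17.1 on every array. Of 9 defining fibroblast markers outside the matrix (Thy1, Pdgfra, Pdgfrb, Twist1, Twist2, Prrx1, Prrx2, Fap and Snai2), 9 lay above it on both arrays with feeders, and without feeders 5 did in the heterozygous line and 7 in the line labelled null.

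Promoter sequences are shown for 3 genes that stand for 3 patterns of signal described below. Col1a2 was low without feeders in both lines, Col3a1 without feeders differed most between the lines among the tested members, and Serpinh1 gave a strong signal in every culture. The sequences are the 250 bases before the gene's start in RefSeq (GRCm38.p6), written 5′ to 3′ on the gene's strand. Capitals mark matches on either strand to the TATA box (TATAAA), the CCAAT box (CCAAT) or the AP-1 site (TGANTCA), motifs that do not overlap one another in these windows.
Col1a2 (chr6:4505368-4505617, + strand): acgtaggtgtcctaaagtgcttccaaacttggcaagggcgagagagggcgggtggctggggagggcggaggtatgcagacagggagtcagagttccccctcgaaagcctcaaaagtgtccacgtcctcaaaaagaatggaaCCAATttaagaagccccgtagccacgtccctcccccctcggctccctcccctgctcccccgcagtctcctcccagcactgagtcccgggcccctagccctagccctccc
Col3a1 (chr1:45311288-45311537, + strand): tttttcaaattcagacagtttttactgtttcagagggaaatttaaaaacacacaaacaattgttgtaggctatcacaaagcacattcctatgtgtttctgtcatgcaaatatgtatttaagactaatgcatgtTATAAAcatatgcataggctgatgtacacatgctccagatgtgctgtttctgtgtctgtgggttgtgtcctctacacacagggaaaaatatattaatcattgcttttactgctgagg
Serpinh1 (chr7:99353240-99353489, - strand): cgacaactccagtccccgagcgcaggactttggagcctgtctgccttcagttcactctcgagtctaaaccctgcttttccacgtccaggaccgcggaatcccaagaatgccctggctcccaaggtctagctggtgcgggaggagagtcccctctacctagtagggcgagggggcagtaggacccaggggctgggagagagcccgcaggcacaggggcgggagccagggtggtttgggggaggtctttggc
The window of Col1a2 held 1 CCAAT box, that of Col3a1 held 1 TATA box, and these letters were not in that of Serpinh1. The table held 28 windows of 22 matrix genes. A TATA box was in 21.4% of them and in 12.4% of all 32851 windows of that length, a CCAAT box in 21.4% and 33.8%, and an AP-1 site in 3.57% and 6.75%. These matches are descriptions of the letters only.

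The first question was which matrix genes were higher in cultures on feeders. In the fit over all genes, 27 of the 36 rose on feeders and 0 fell, 4 were tested without passing, 2 were too dim to test and 3 were not read. Over all 12483 genes tested, 4.01% passed in the higher and 0.921% in the lower direction (limma, adjusted p under 0.05). The differences of the 27 ran from 1.13 to 7.14 on the log2 scale, with adjusted p between 7.47e-04 and 0.0158. All folds and log2 differences are of the signal plus an offset of 4.6, so folds of dim genes are understated. A size rule without a test asked for a 2-fold rise in each line, and for a signal above 17.1 on at least 1 array of each pair. It held for 27 members, against 4.03% of all genes tested, and 0 members met it in the lower direction, against 0.521%. These were not the same 27, since Emilin1 met the rule without passing the fit, and Fn1 passed the fit without meeting the rule. The median difference of the 31 tested members was 4.62 in the heterozygous line and 3.49 in the line labelled null, beside 0.03 and 0.04 over all genes tested. A member that is dim without feeders can pass the filter on low signals through the feeder arrays alone. Of the 31 tested members, 25 lay above the filter on the arrays without feeders, and 22 of these rose, against 3.18% of all genes treated the same way. For 31 of the 33 genes read, both arrays on feeders were brighter than both arrays without, as they were for 27.2% of all genes tested. Mfap4 and Fmod, too dim to test, are counted among those 31, while the 27.2% covers tested genes only. The fit left 1 residual degree of freedom. A model with the feeder term alone gave 22 members among 243 genes called in all. It gave 11 members among 36 genes without the heterozygous array on feeders, and 5 among 19 without the array labelled null on feeders. Without the variance trend, 19 of the 27 members passed, and Col3a1, Col5a2, Col8a1, Fn1, Mfap5, Pcolce, Vcan and Tnc did not. Tnc also did not pass with a filter at the 60th percentile.

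**Figure D1:**
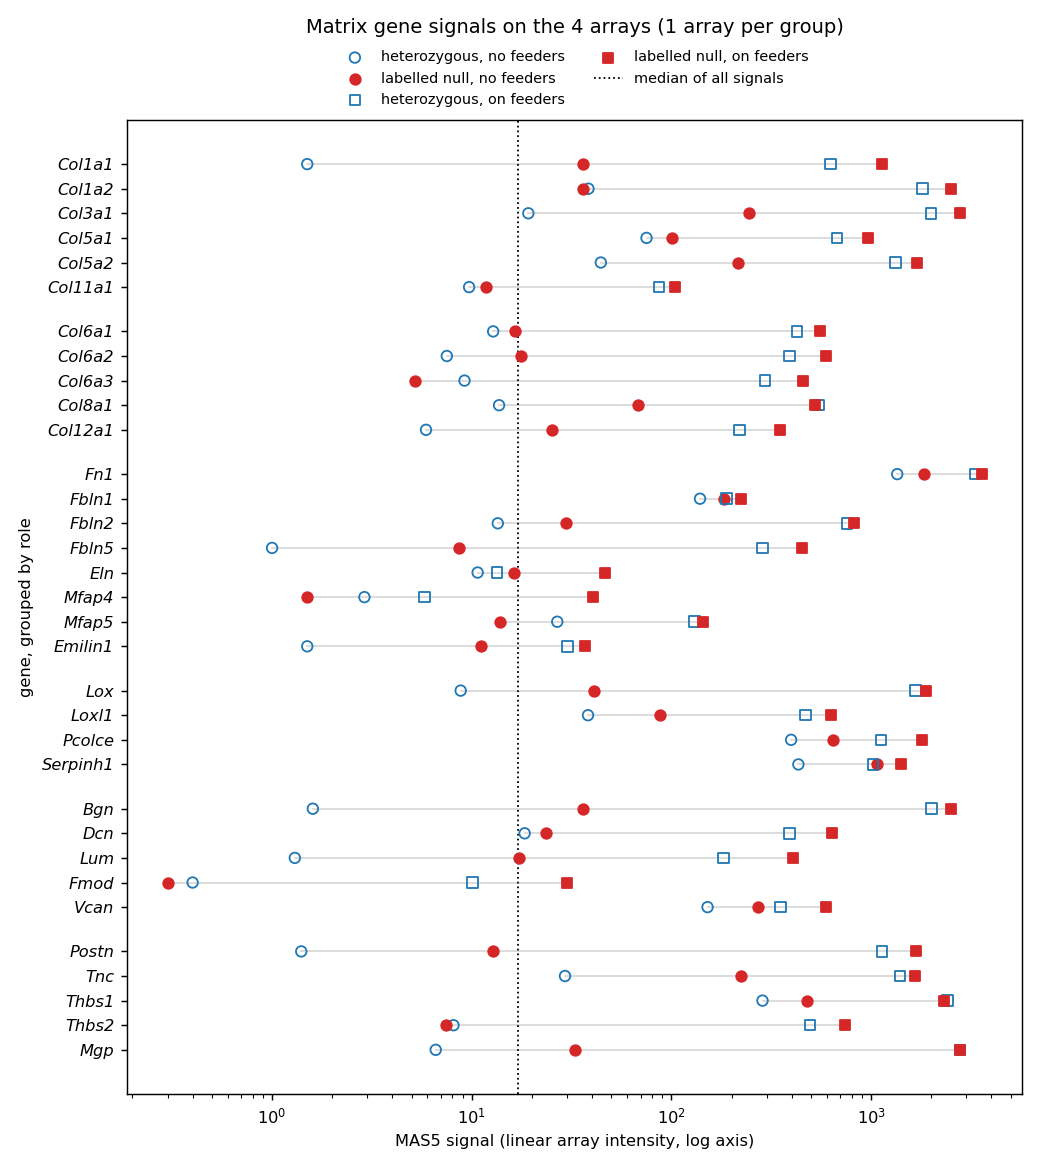
MAS5 signal (log axis) of the 33 genes read, grouped by role, with 1 symbol per array: circles are cultures without feeders and squares cultures on feeders, open for the heterozygous line and filled for the line labelled null. The dotted line is the median of all signals, 17.1; on the heterozygous array without feeders 19 of the 33 genes lie below it, and on the array labelled null on feeders 0 do.

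The fibrillar collagens, which form the banded fibres of skin, tendon and bone, all rose on feeders (6 of 6). Col1a1, which encodes the more abundant chain of type I collagen, without feeders read 1.5 in the heterozygous line and 36 in the other, compared with 626.6 and 1135.6 on feeders. Its 2 arrays on feeders were far above both others, and the pair without feeders was itself unequal. The difference on feeders was 5.75 on the log2 scale (SE 0.43, adjusted p = 0.00322). Col1a2, the partner chain in the same fibre, read 38.4 and 36.2 without feeders, compared with 1811.9 and 2506.4 on feeders. Here the cultures without feeders differed little between the lines. The difference on feeders was 5.67 (SE 0.19, adjusted p = 7.47e-04).

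Col3a1, the chain of type III collagen found in elastic tissues, read 19.2 and 243.7 without feeders, compared with 1992.4 and 2776.5 on feeders. The array labelled null without feeders stood between the heterozygous array without feeders and the pair on feeders. The rise on feeders was 4.94 (SE 0.62, adjusted p = 0.014). Col5a2, a chain of the type V collagen that starts fibrils, lies next to Col3a1 on the chromosome and had the same order of arrays, with 44.3 and 215.2 without feeders, compared with 1320.2 and 1694.1 on feeders. Col5a1, its partner chain, read 75 and 101.2 without feeders, compared with 675.9 and 958.8 on feeders, and so did not show the gap between lines that Col5a2 showed. Col11a1, a minor fibril chain known best from cartilage, read 9.7 and 11.8 without feeders, compared with 86.8 and 103.9 on feeders.

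The chains of collagens VI, VIII and XII also rose in 5 of 5 cases. Col6a1, Col6a2 and Col6a3 encode the chains that assemble into the beaded microfibrils around cells. Col6a1 read 12.8 and 16.4 without feeders, compared with 424.2 and 555.6 on feeders. Col6a2, its neighbour on the chromosome, read 7.5 and 17.7 without feeders, compared with 389.4 and 592.6 on feeders. Col6a3 read 9.2 and 5.2 without feeders, compared with 293.9 and 455.8 on feeders. Without feeders these probe sets lay below or just above the all-signal median. A second Col6a2 probe set, which can bind several transcripts, read 34.5 and 15.2 without feeders and 137 and 228 with them, so the Col6a2 probe sets disagree on the order of the lines without feeders. Col8a1, a short-chain collagen of vessel and corneal matrix, read 13.7 and 67.9 without feeders, compared with 547.8 and 525.7 on feeders. Col12a1, which lies along the surface of collagen fibrils, read 5.9 and 25.1 without feeders, compared with 219.1 and 349.7 on feeders. By these probe sets the array labelled null was the brighter of the pair without feeders in both genes, and for Col8a1 the pair on feeders was close to equal. Another Col12a1 probe set read 7.3 and 7 without feeders. The other Col8a1 probe sets read 8.2 and 29.4, and 1.2 and 0.4, so for both genes the order of the lines rests on the probe set.

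Fibronectin, the fibulins and the elastic fibre proteins were the most mixed group: 4 of 9 rose, 3 were tested without passing, Mfap4 was too dim to test and Fbn1 was not read. Fn1, which encodes fibronectin, the adhesive glycoprotein that cells use to assemble other matrix, was already bright without feeders. It read 1350.8 and 1835.4 without feeders, compared with 3319.2 and 3579.3 on feeders, a difference of 1.13 (SE 0.10, adjusted p = 0.00534). The other Fn1 probe set differed less, from 229.4 and 329.8 to 300.9 and 362, and with the mean of the probe sets the Fn1 difference was 0.69 and did not pass. Fbln1, a fibulin of basement membranes and elastic fibres, read 139 and 182.7 without feeders, compared with 189.1 and 222.9 on feeders. Its groups lay close together, and the difference of 0.36 (SE 0.17, adjusted p = 0.288) did not pass.

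Fbln2 and Fbln5, fibulins that bind elastin and its microfibrils, stood apart from Fbln1. Fbln2 read 13.5 and 29.7 without feeders, compared with 756.7 and 820.2 on feeders, and Fbln5 read 1 and 8.6 without feeders, compared with 285.8 and 450.2 on feeders. Both were dim or near the all-signal median without feeders and rose by 4.99 (SE 0.24, adjusted p = 9.67e-04) and 5.40 (SE 0.24, adjusted p = 9.59e-04). Eln, the gene of elastin itself, was low in every culture, at 10.7 and 16.2 without feeders, compared with 13.4 and 46.7 on feeders. Its difference of 0.77 (SE 0.37, adjusted p = 0.288) did not pass. Mfap5, a microfibril glycoprotein, rose from 26.8 and 13.8 to 130.3 and 144.1. Emilin1, a glycoprotein of the elastin surface, read 1.5 and 11.1 without feeders, compared with 30.2 and 36.9 on feeders, and its difference of 1.96 (SE 0.39, adjusted p = 0.0526) did not pass. Mfap4 read 2.9, 1.5 and 5.8 on the first 3 arrays and 40.6 on the array labelled null on feeders. Elastin and Mfap4 thus had their only signals above the all-signal median on that 1 array.

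Among the genes for crosslinking and collagen processing, Lox, Loxl1 and Pcolce rose, Serpinh1 was tested without passing, and Loxl2 was not read. Lox encodes the oxidase that joins collagen and elastin chains. It read 8.8 and 40.9 without feeders, compared with 1662.9 and 1871.5 on feeders, so that both arrays on feeders were bright and nearly equal. The rise was 6.16 (SE 0.37, adjusted p = 0.00164). Loxl1, its relative in elastic fibres, rose from 38.2 and 87.2 to 469.7 and 627.6. Pcolce, which speeds the trimming of procollagen ends, was bright everywhere, at 397.4 and 642.4 without feeders, compared with 1118.4 and 1795.3 on feeders. Its rise of 1.48 (SE 0.11, adjusted p = 0.00322) was close to the same in both lines. Serpinh1, which encodes the collagen chaperone Hsp47, read 432 and 1066.1 without feeders, compared with 1019.6 and 1418.6 on feeders. The array labelled null without feeders was as bright as the heterozygous array on feeders, and the difference of 0.82 (SE 0.20, adjusted p = 0.0898) did not pass.

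The proteoglycans rose in 4 of 5 cases, and Fmod was too dim to test. Bgn, a small leucine-rich proteoglycan that binds collagen, read 1.6 and 35.9 without feeders, compared with 1999.3 and 2503.3 on feeders. That was a rise of 7.14 (SE 0.52, adjusted p = 0.00302), the largest among the tested members. The probe set is marked x_at and can bind several transcripts, but the other 2 Bgn probe sets also rose by at least 5.51 in each line. Dcn and Lum, which encode decorin and lumican, regulators of fibril width, are neighbours on the chromosome. Dcn read 18.4 and 23.6 without feeders, compared with 389.7 and 633.1 on feeders. Lum read 1.3 and 17.3 without feeders, compared with 181.7 and 408.4 on feeders. Dcn was nearly equal in the lines without feeders, whereas Lum was at the bottom of the scale in heterozygous cells only. Fmod read 0.4 and 0.3 without feeders, compared with 10.1 and 30.1 on feeders. Vcan, the large proteoglycan versican, was bright throughout, at 151.6 and 270.1 without feeders, compared with 351.9 and 595.4 on feeders. Its rise was 1.16 (SE 0.15, adjusted p = 0.0154), and of the 3 Vcan probe sets above the all-signal median on any array, 1 was at least 2-fold higher on feeders in both lines. With the mean of the probe sets the Vcan difference was 0.11 and did not pass.

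The matricellular and mineral-binding genes read all rose (5 of 5, Spp1 not read). Postn, which encodes periostin, read 1.4 and 12.8 without feeders, compared with 1135.9 and 1671.3 on feeders, a rise of 7.08 (SE 0.27, adjusted p = 7.47e-04). Mgp, an inhibitor of matrix mineralisation, read 6.6 and 32.7 without feeders, compared with 2788.4 and 2798.3 on feeders, a rise of 7.10 (SE 0.39, adjusted p = 0.00133). The pair on feeders was almost identical for Mgp, and without feeders Postn lay below the all-signal median in both lines and Mgp in the heterozygous line alone. Tnc, which encodes tenascin-C of developing and wounded tissue, read 29.3 and 223.9 without feeders, compared with 1397.3 and 1664.6 on feeders. A second Tnc probe set gave 4.6 and 22.4 without feeders, compared with 619.7 and 166 on feeders, so the probe sets disagree on the order of the lines on feeders. Thbs1, a thrombospondin that activates TGF-beta, was bright without feeders at 285.7 and 476.9 and rose to 2407.5 and 2327.3. Thbs2, its relative, read 8.1 and 7.4 without feeders, compared with 494.1 and 739.5 on feeders, and was low in both lines without feeders.

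**Figure D2:**
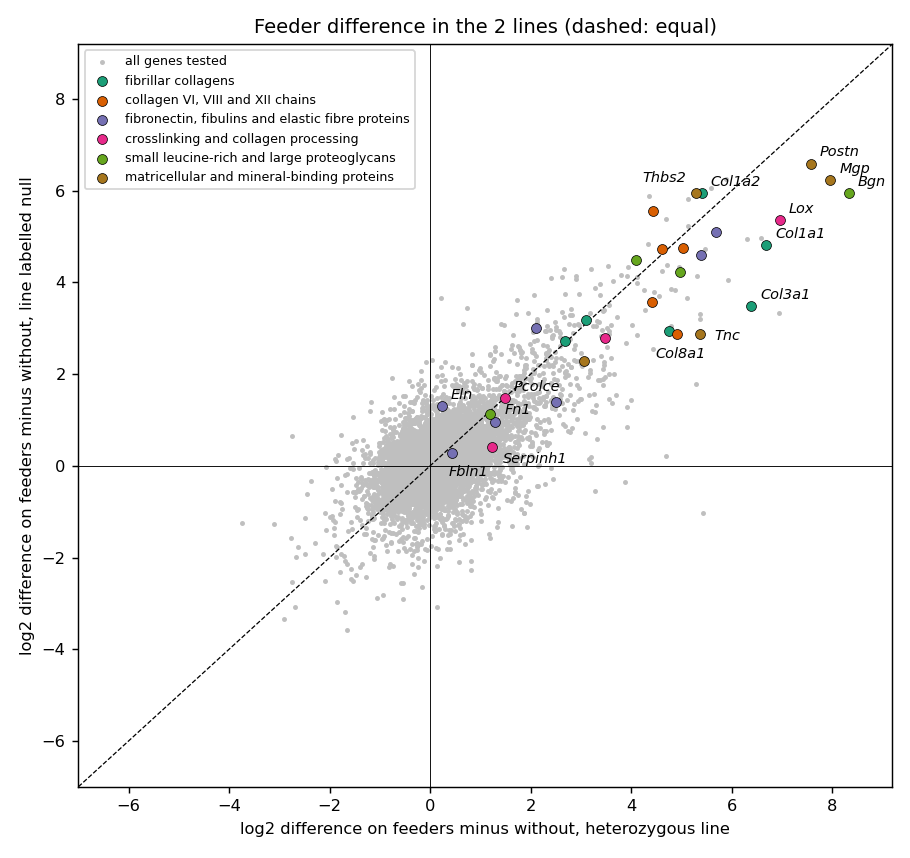
Log2 difference on feeders minus without feeders in the heterozygous line (x axis) and in the line labelled null (y axis), 1 array minus 1 array in each, for the 31 tested matrix genes coloured by role and all 12483 genes tested in grey. All 31 coloured points are above 0 on both axes; Col3a1, Tnc and Col8a1 lie below the dashed line of equality because the array labelled null without feeders was brighter.

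The second question was how much matrix signal remained in cultures without feeders. For the 30 tested genes above the all-signal median on both arrays with feeders, the signal without feeders was expressed as a percent of the signal on feeders in the same line, with no offset. The median over these genes was 2.86% in the heterozygous line and 7.98% in the line labelled null, beside 96.6% and 96.4% over all 10656 genes treated the same way. After the 25th percentile signal was subtracted from each array, the medians were 1.75% and 6.23%. The percent was larger in the line labelled null for 23 of the 30, against 50.7% of all genes. Each percent is the ratio of 1 array to 1 array and has no replicate check. Many of the signals without feeders lay in the dim range: 19 of 33 genes in the heterozygous line and 11 in the line labelled null were below the all-signal median, so that the lower percents are rough.

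The genes did not keep 1 common percent. In the heterozygous line 20 of the 30 genes were under 5% and 5 were at 30% or more. These 5 were Fbln1 at 73.5%, Vcan at 43.1%, Serpinh1 at 42.4%, Fn1 at 40.7% and Pcolce at 35.5%. By the brightest probe set all of them gave signals of 139 or more in every culture, well above the all-signal median. Their order rests on the probe set. Other sets above that median on at least 1 array gave 41.2% for Fbln1, 52.8% and 96.4% for Vcan and 76.2% for Fn1. Those of Serpinh1 and Pcolce gave 47.0% and 43.6%. At the other end were Bgn at 0.0800%, Postn at 0.123%, Mgp at 0.237% and Col1a1 at 0.239%. These come from heterozygous signals of 1.6, 1.4, 6.6 and 1.5, of which only that of Mgp lies above the offset of 4.6, so their order is not resolved. Other probe sets gave 0.995% and 0.123% for Bgn and 4.44% for Col1a1.

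In the line labelled null, 14 genes were under 5% and 6 were at 30% or more. The 6 were the same 5 genes and Emilin1, at 82% for Fbln1, 75.2% for Serpinh1, 51.3% for Fn1, 45.4% for Vcan, 35.8% for Pcolce and 30.1% for Emilin1. The Emilin1 percent is rough, at 11.1 over 36.9, with the signal without feeders below the all-signal median. Next came Thbs1 at 20.5%, Loxl1 at 13.9%, Tnc at 13.5%, Col8a1 at 12.9% and Col5a2 at 12.7%. Col3a1 stood at 8.78%, Col1a1 at 3.17% and Col1a2 at 1.44%. The second Col1a1 probe set gave 12.8% and the second Col3a1 probe set 9.85%, so the order of these chains rests on the probe set. Other sets gave 56.3% for Fbln1, 91.1% for Fn1, 30.3% for Col5a2 and 43.0% for Mfap5. Those of Serpinh1 and Pcolce gave 69.5% and 35.0%. For Vcan they gave 56.7% and 138%, the latter from a signal of 54 without feeders and 39 on feeders. Which genes reached 30%, and their order, thus also rest on the probe set. Col6a3 at 1.14%, Mgp at 1.17%, Thbs2 at 1.00% and Postn at 0.766% were the lowest.

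**Figure D3:**
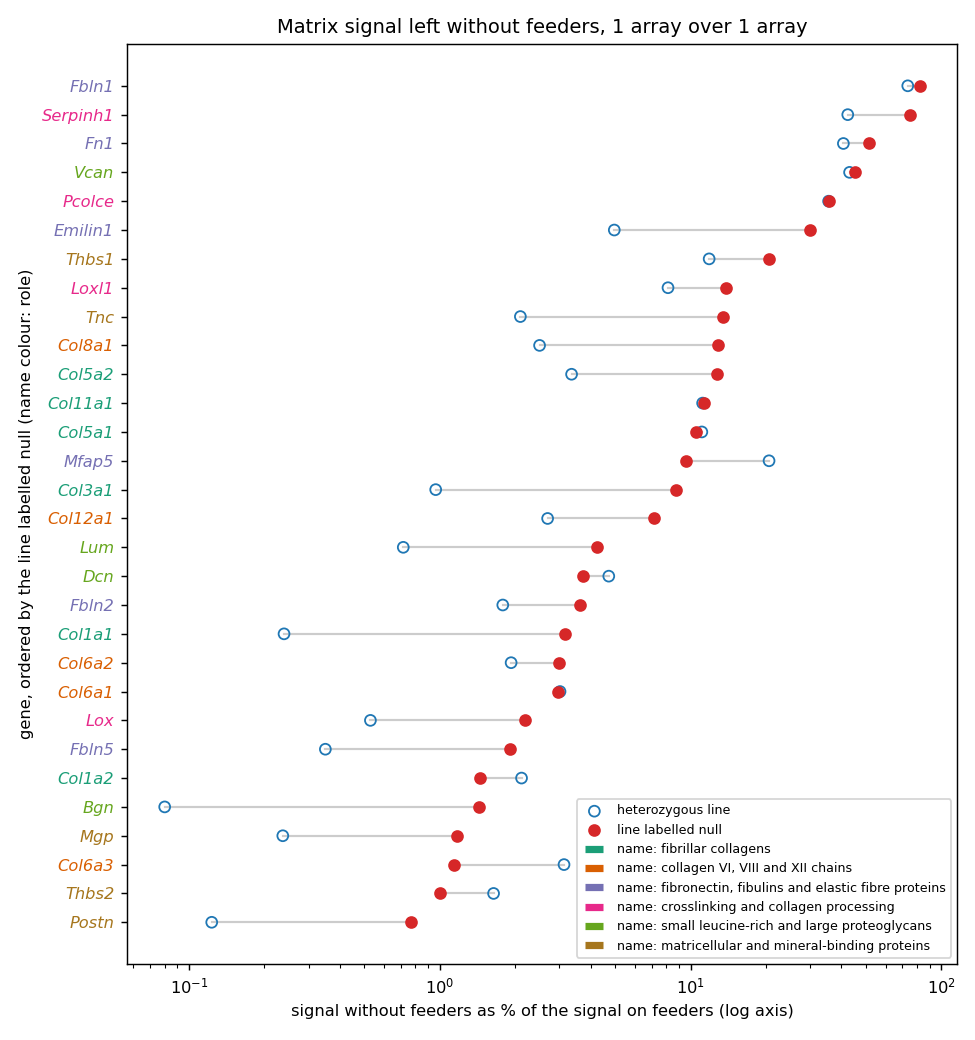
Signal without feeders as a percent of the signal on feeders (log axis) for 30 matrix genes, ordered by the line labelled null, with an open circle for the heterozygous line, a filled circle for the line labelled null and the gene name coloured by role. Values run from 0.0800% to 73.5% in the heterozygous line and from 0.766% to 82% in the line labelled null; Bgn, Col1a1 and Col3a1 show wide gaps between lines, while Pcolce, Col5a1, Col11a1 and Col6a1 nearly coincide.

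The third comparison set the line labelled null against the heterozygous line. In the fit over both feeder conditions, 0 members changed (limma, smallest adjusted p = 0.152), while 18 of 31 lay under 0.05 before adjustment, each higher in the line labelled null. Over all genes tested, 0.016% passed in the higher and 0.032% in the lower direction after adjustment. Before adjustment 5.82% of all genes lay under 0.05 and were higher, and 6.53% were lower. Without feeders, 12 of the 31 tested members were at least 2-fold higher on the array labelled null with the brighter array above 17.1, and 0 were lower, where 3.82% of all genes tested were higher and 3.01% lower. Postn, Emilin1 and Fbln5 also exceeded 2-fold, but both of their arrays lay below 17.1. On feeders 2 of the 31 tested members met that rule, Lum and Eln, against 1.4% of all genes tested, and 0 were lower, against 2.14%. Mfap4 and Fmod, too dim on average to be tested, also met it on feeders, with folds of 4.35 and 2.36. The median fold of the tested members, line labelled null over heterozygous, was 1.90 without feeders and 1.38 on feeders. These single-pair values are 1 array against 1 and were not tested.

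The 12 genes were Col3a1, Tnc, Col1a1, Bgn, Col5a2, Col8a1, Lum, Lox, Mgp, Col12a1, Serpinh1 and Loxl1. Their folds without feeders ran from 2.14 for Loxl1 to 10.4 for Col3a1, and on feeders from 0.960 for Col8a1 to 2.22 for Lum. For Col3a1 the fold was thus 10.4 without feeders against 1.39 on feeders. Its other probe set read 5.6 and 32.6 without feeders, compared with 185.6 and 330.8 on feeders, with the same order of arrays. Tnc was 6.74-fold and 1.19-fold higher, Col1a1 6.66-fold and 1.81-fold, Bgn 6.53-fold and 1.25-fold, and Col5a2 4.49-fold and 1.28-fold. The folds of Col1a1, Bgn and Lum without feeders are over heterozygous signals below the offset, and Lum read only 17.3 on the array labelled null. The heterozygous signals of Col12a1, Mgp, Lox and Col8a1 lay above the offset but below the all-signal median. On the log2 scale the main Col1a1 and Bgn probe sets gave 2.73 and 2.71, the second Col1a1 probe set 1.41 and the other Bgn probe sets 1.22 and 2.71. Serpinh1 was 2.45-fold and 1.39-fold higher, with signals of 432 or more on all 4 arrays. For Col8a1 and Col12a1 the direction without feeders rests on the probe set. Other sets gave log2 differences of 1.41 and -0.21 for Col8a1 and -0.04 for Col12a1, the negative values from signals below the all-signal median.

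Other members did not show this gap without feeders. Col1a2 was 0.949-fold, Thbs2 0.945-fold, Col6a3 0.710-fold and Mfap5 0.586-fold on the array labelled null relative to the heterozygous array, while on feeders all 4 were above 1. Col6a3 has 1 probe set, and for the other 3 genes the direction without feeders rests on the probe set used. The other sets gave log2 differences of 0.42 and 0.57 for Col1a2, 0.72 and 0.10 for Thbs2 and 0.46 for Mfap5, each higher on the array labelled null. The 0.57 comes from signals of 0.1 and 2.4 and the 0.72 from 2.6 and 7.3, all below the all-signal median, so these 2 values are rough. Col11a1 at 1.15-fold, Col6a1 at 1.21-fold, Dcn at 1.23-fold and Col5a1 at 1.33-fold lay close to equality. By the brightest probe set, the fibril chains Col1a1, Col3a1 and Col5a2 were thus among the 12 genes, and Col1a2, Col5a1 and Col11a1 were not.

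On feeders, 29 of the 31 tested members were higher on the array labelled null than on the heterozygous array, by any amount, against 51% of all genes tested. Without feeders the count was 27 of 31, against 50.3%. Most of the differences on feeders were small, and 18 of the 31 were under 0.5 on the log2 scale in either direction. The signed log2 difference, line labelled null minus heterozygous, was higher without feeders than on feeders for 22 members and lower for 9. It was higher without feeders for 50.3% of all genes tested. The median excess of the members was 0.69. Because the sign is kept, a lower value is not always a smaller gap: Mfap5 stood at -0.77 without feeders and 0.14 on feeders. The excess was 2.91 for Col3a1, 2.50 for Tnc, 2.38 for Bgn and 2.05 for Col8a1, and -1.12 for Col6a3 and -1.07 for Eln. With 1 array per group this excess could not be tested. It fell to 0.14 with an offset at the median signal and to 0.26 with the mean of a gene's probe sets.

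**Figure D4:**
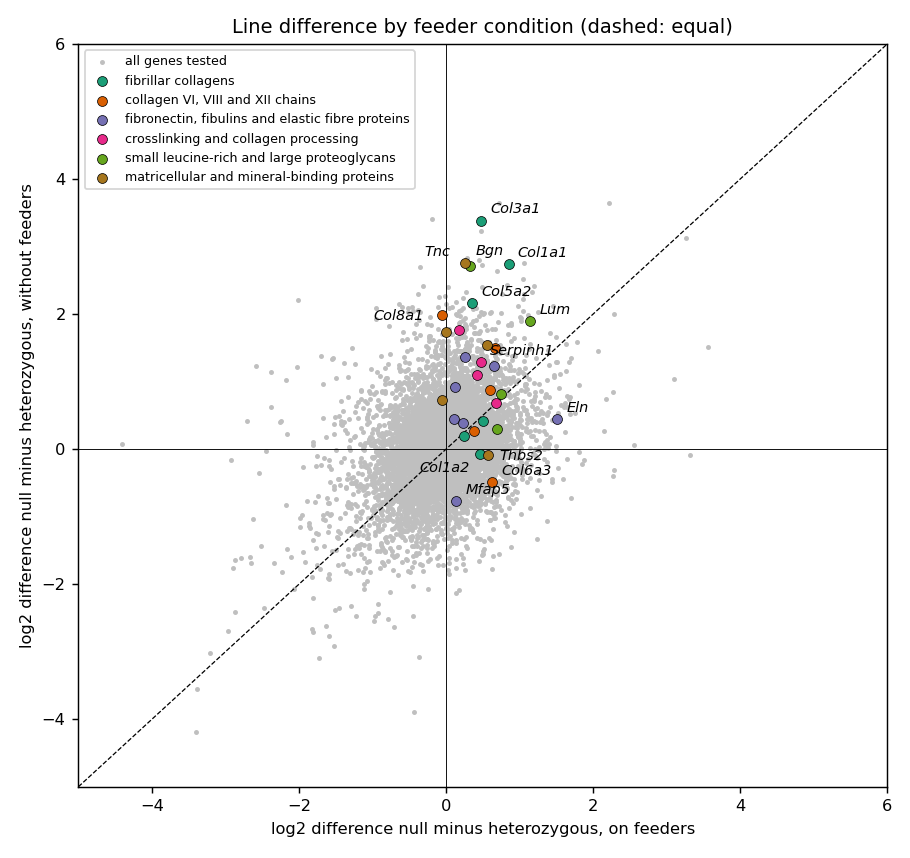
Log2 difference, line labelled null minus heterozygous, on feeders (x axis) and without feeders (y axis), 1 array minus 1 array in each, for the 31 tested matrix genes coloured by role and all genes tested in grey. Col3a1 at 3.38, Tnc at 2.75 and Col1a1 at 2.73 lie highest on the y axis, while Mfap5, Col6a3, Thbs2 and Col1a2 lie below 0 on it.

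Markers of the feeder cell type outside the matrix were read beside the members. Of 24 listed fibroblast markers 19 were tested, 12 rose on feeders and 0 fell, with a median difference of 2.18 on the log2 scale. Thy1, a fibroblast surface glycoprotein, read 20.8 and 15.7 without feeders, compared with 650.3 and 848.2 on feeders. The calcium-binding gene S100a4 read 2.3 and 32.5 without feeders, compared with 653.9 and 1161.4 on feeders, and the mesenchymal homeobox gene Prrx1 read 6.5 and 23.4 without feeders, compared with 438.6 and 489.1 on feeders. Without feeders, S100a4 and Prrx1 were thus brighter on the array labelled null and Thy1 was not, the same kind of split as among the collagens.

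The 23 fibroblast markers read summed, without feeders, to 2251 in the heterozygous line and 5089 in the line labelled null, compared with 7254 and 9163 on feeders. Vim, which encodes vimentin and which ES cells also express, made up most of the first 2 sums, at 1730.3 and 4448.5. The 9 defining fibroblast markers summed to 168.4 and 307.4 without feeders, compared with 2309 and 3150 on feeders. On any array 0 of them was at 0, but only 4 to 7 probe sets of a whole array were. A signal above 0 therefore does not show that a marker was detected, and Fap read 1.8 and 4.5 without feeders. Without feeders, 5 of the 19 tested markers were at least 2-fold higher on the array labelled null and 0 were lower. The part of these markers in the matrix differences between lines was not tested.

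Some smooth muscle genes were also brighter on the array labelled null without feeders. Acta2, smooth muscle actin, read 732.9 and 1958.4 without feeders, compared with 2653.5 and 3679.2 on feeders, and Tagln, transgelin, read 657.3 and 1491.9 without feeders, compared with 1307.3 and 1730.5 on feeders. In this list of 7 tested genes 2 rose on feeders, Myl9 and Acta2. Without feeders 3 of the 7, Acta2, Tagln and Des, were at least 2-fold higher on the array labelled null, while Myl9 read 119.1 and 119.5 and Smtn 56.4 and 34, and the median log2 difference of the list was 0.16. The defining genes Acta2, Tagln, Cnn1 and Myh11 summed to 1428 and 3494 without feeders and to 4024 and 5525 with them. Of these, Myh11 read 0.8 and 1.2 without feeders, far below the all-signal median. Their part in the matrix differences was not tested either.

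Markers of other cell types that a culture could hold were counted in the same way. Of 16 tested endoderm markers 2 rose on feeders, Thbd and Pdgfra, and Lrp2 fell, while 0 differed at least 2-fold between the lines without feeders. Pdgfra is also 1 of the defining fibroblast markers. The 7 defining endoderm genes summed to 517.7 and 560.8 without feeders and to 502.2 and 334.5 with them. Without feeders the brightest signals among them were those of Lama1, at 232.5 and 172.4, and Dab2, at 129 and 229.4, while Gata4 read 19.6 and 20.7. Defining cartilage and bone markers (Acan, Comp, Sp7 and Ibsp, Bglap not read) were all below the all-signal median without feeders, and 0 of 5 tested genes of that list rose. Of 5 tested endothelial markers 0 rose and Kdr fell. Of 7 tested early mesoderm markers 0 rose, and Kdr, which is on that list too, fell, while Foxf1 was at least 2-fold higher on the array labelled null without feeders. Among 6 tested macrophage markers Lyz2 and Cd53 rose on feeders, Lyz2 from 1.6 and 8.6 to 141.6 and 168.3, while of the 4 defining markers Csf1r and Cd68 lay above the all-signal median on every array and Ptprc and Tyrobp below it. Of 14 tested ES cell markers 1, Klf4, rose on feeders. Without feeders 13 of the 14 were lower on the array labelled null, with a median log2 difference of -0.35. Dppa3, at 219.2 and 29.5, and Tcl1, at 284.5 and 131.2, were at least 2-fold lower. Their part in the matrix differences between lines was not tested.

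Other genes of the matrix pathway were read in the same fit. Of 27 enzymes and helpers of collagen synthesis and crosslinking, 22 were tested, 7 rose on feeders and 0 fell, with a median difference of 0.63. Loxl3, a further lysyl oxidase relative, read 10.6 and 19.3 without feeders, compared with 195.5 and 222.9 on feeders. Tll1, a protease of the procollagen-trimming family, rose by 2.47 (SE 0.27, adjusted p = 0.00928), and P3h3, a prolyl hydroxylase relative, by 2.38. Sparc, a matricellular collagen-binding protein, rose from 836.4 and 1303.9 to 2379.7 and 3119.6. The hydroxylase subunits P4ha1 and P4ha2 and the folding factor Fkbp14 made up the other 3. Ppib, a proline isomerase that helps collagen fold, did not pass, at 1547.3 and 1800.7 without feeders, compared with 1672.4 and 2001.8 on feeders. In this list 0 of 22 genes met the 2-fold rule for the array labelled null without feeders; P3h3 and P4ha3 exceeded 2-fold, but with both arrays below 17.1.

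Of 25 matrix receptors 20 were tested, 6 rose on feeders and Sdc4, a syndecan, fell, with a median difference of 0.92. Cd44, the hyaluronan receptor, read 16.8 and 86.7 without feeders, compared with 877.2 and 900.9 on feeders, the same order of arrays as for Col5a2. Ddr2, a receptor for fibrillar collagen, read 19.5 and 11.1 without feeders, compared with 230.5 and 226.6 on feeders, and was not brighter on the array labelled null in either condition. Itga4, an integrin chain that binds fibronectin, rose by 2.78 (SE 0.39, adjusted p = 0.0198), and Itga8, Itgb5 and Sdc2 rose as well. Of 30 collagen chains outside the members, 16 were tested and 3 rose: Col4a5, Col16a1 and Col4a2, by 2.61, 2.05 and 1.06. Their median of 0.34 stood beside the members' 4.12, a description of the lists with no test.

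**Figure D5:**
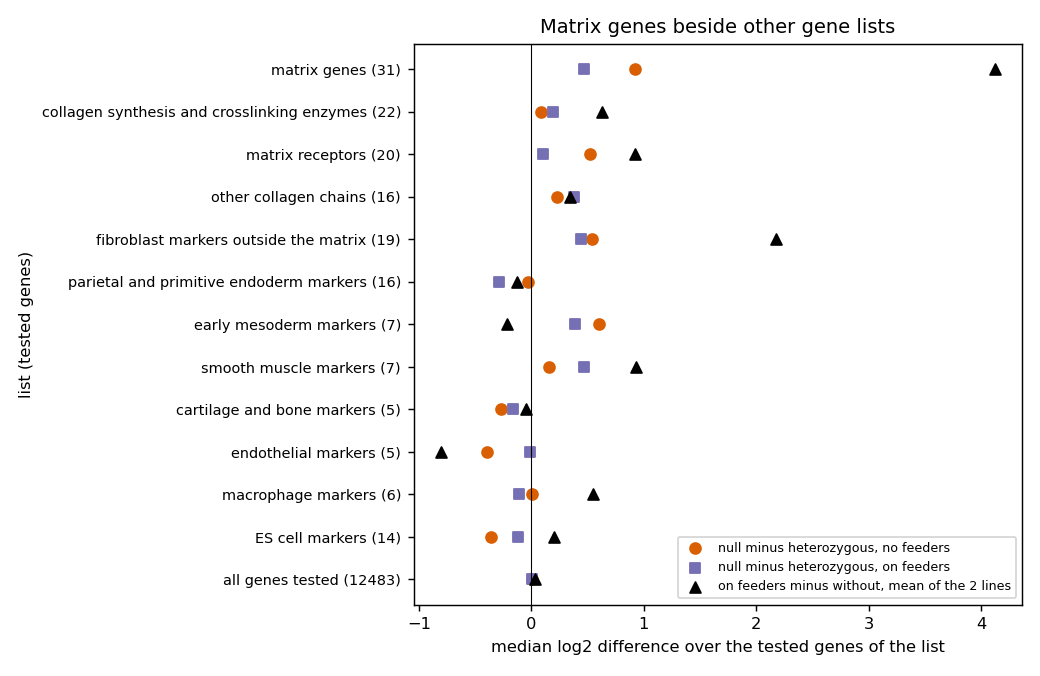
Median log2 difference over the tested genes of each list, with the number of genes in parentheses: triangles are on feeders minus without (mean of both lines), circles the line labelled null minus heterozygous without feeders, and squares the same on feeders. The matrix genes stand at 4.12, 0.92 and 0.47, the fibroblast markers outside the matrix at 2.18, 0.54 and 0.44, and all genes tested near 0.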

How the data were processed

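Total RNA from 4 cultures was labelled and hybridised to 1 array each. The deposited values are linear MAS5 signals (array intensity); the authors' MAS5 processing is per the submitters' processing notes, with no version, and the genome build is not given in the sources used here. There were no detection calls, so the number of arrays and their signal over background limit precision. From 45101 probe sets, 64 controls were left out; 34945 had 1 symbol, 932 several and 9160 none listed in the probe table (annotation table of the platform, with symbols checked by gene ID). Each gene was read by its brightest probe set. Signals were transformed as log2(signal + 4.6), the 25th percentile of all signals. Genes whose mean lay below log2 3.81, the 40th percentile over probe sets, were not tested, which left 12483.

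Differences were fitted with limma 3.58.1 in R 4.3.3 (genotype and feeder terms, eBayes with a variance trend, two-sided, Benjamini-Hochberg adjustment over all genes, threshold 0.05). The fit was also run on simulated data with independent noise and the same feeder shift in both lines. That run therefore cannot check how the fit behaves where the feeder effects differ between lines. The additive model leaves 1 residual degree of freedom, the difference between the feeder effects in the lines. SE values combine that residual with the variance trend over all genes, which carried 4.76 prior degrees of freedom. They are thus not the spread of each gene alone. Single pairs of arrays have no test. All 36 members are named; from each other list, up to 3 genes with the largest feeder difference among those that passed are named by rule, and further genes in those lists were chosen after their values were seen. The members and lists were chosen with earlier results of these data known. Alternatives changed the offset, scaling, filter, probe sets, variance trend, model terms and arrays.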

Additional observations from a re-analysis of the deposited data

How the results depend on the processing

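The count of 27 members higher on feeders kept its direction and stayed within 1.5 times in each alternative that used all 4 arrays (19 to 28), and 19 members passed in each of the 8 alternatives with both model terms. Leaving out 1 array, with the feeder term alone, gave 5 to 28 members. The lowest was without the array labelled null on feeders (5), then without the heterozygous array on feeders (11). Over all genes, 616 were called in either direction, and 190 to 612 in the other fits with all 4 arrays; leaving out 1 array gave 19 to 543. The count of members different between genotypes was 0 in all alternatives that used all 4 arrays. Over all genes, 6 were called between genotypes in the main fit and 0 to 7 in these alternatives. With so few calls over all genes, a count of 0 members does not show that the lines were alike. Among tested members, a 3-fold rule took the 2 that were higher in the line labelled null on feeders to 0. The median feeder difference of 4.12 moved to 3.66 with an offset at the median signal, 4.37 with an offset of 1, 4.10 with quantile normalization, 4.04 with median centring, 3.33 with the mean of the probe sets, 4.62 in the heterozygous pair and 3.49 in the pair labelled null. The percent left without feeders moved from 2.86 in the heterozygous line to 2.99 with quantile normalization, 3.03 with median centring, 3.52 with the mean of the probe sets, 1.75 after subtraction of the 25th percentile signal and 3.13 over all members read. In the line labelled null it moved from 7.98 to 7.93, 8.45, 7.05, 6.23 and 7.18 under the same alternatives. The excess of the line difference without feeders moved from 0.69 to 0.14 with an offset at the median signal, 0.79 with an offset of 1, 0.58 with quantile normalization, 0.69 with median centring and 0.26 with the mean of the probe sets. The cause was not tested. The fit with both terms compares feeder conditions within each line and so already pairs the arrays by line. No further pairing was possible, because each group has 1 array and the labels carry no replicate numbers that could form a block.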
